A study of Mus musculus with 11 samples.

Results

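Ribosomal protein pseudogenes were examined in hippocampal RNA-seq data from 11 adult mice. Members are genes in GENCODE's GRCm38 annotation whose symbol is a ribosomal protein symbol (Rpl or Rps) followed by -ps and whose gene type is a pseudogene type, with at least 10 counts summed over the mice. The annotation holds 300 such symbols, and 294 of them have a pseudogene type. Of these, 230 were in the count tables, 46 were at 0 counts in all mice and 106 had 1 to 9 counts. The remaining 78 are the members, out of 20589 genes with at least 10 counts. The minimum lies in a crowded part of the range, since 9 members had exactly 10 counts and 4 pseudogenes had exactly 9. Rpl9-ps6 and Rpl10-ps3, with 623 and 38 counts, are annotated as protein-coding and are not members.

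The mice were wildtype 129S6/SvEv x C57BL/6J F1 animals aged 14 weeks. The CD group (3 males and 3 females) had mothers kept before conception on chow with 2.3 mg/kg folic acid, and the FD group (2 males and 3 females) had mothers kept on chow with 40 mg/kg. The comparison asks whether maternal diet before mating altered hippocampal transcript levels in the offspring. The labels do not tie mice to litters, so littermates may be among them and p-values measure the spread between these mice. In bulk tissue, fewer cells of a type and less RNA per cell cannot be told apart.

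Ribosomal proteins are the protein part of the ribosome, with Rpl proteins in the large subunit and Rps proteins in the small subunit. Their messenger RNAs are abundant in nearly all cells, and many have been copied back into the genome by reverse transcription. Such processed pseudogenes carry the spliced sequence of the parent gene without its introns, so they remain close to the parent's messenger RNA in sequence, and short reads are hard to assign between parent and copy.

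Libraries held 11737554 to 44447006 counts in genes. The count tables keep reads with a single alignment, and the tally of several alignments came to between 13.7 and 16.0% of the total tallied. Every value of this tally is even and its unit is not given, so it may count alignments and not reads. Reads outside annotated genes came to between 7.01 and 11.03% of the same total. A two-sided exact permutation test over the 11 mice gave p = 0.498 and p = 0.593 for the difference of these shares between diets. Levels are given as CPM, the counts of a gene per 1e6 library counts, with library sizes scaled by the trimmed mean of M-values (TMM). The dentate granule cell gene Prox1 had 128.0 to 163 CPM and the pyramidal neuron gene Neurod6 had 263 to 319, so markers of the labelled tissue were present in every mouse. Blood markers summed to between 11.3 and 51.3 CPM in CD and 21.5 and 47.9 in FD mice. Choroid plexus markers summed to 38.8 to 95.2 in CD and 33.0 to 47.8 in FD mice, and no gene of either list passed the diet test.

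The sequences show what sets the members apart from each other. Rpl38-ps2, on the minus strand at chr6:140746960-140747172, is identical to the coding sequence of Rpl38, which encodes a small protein of the large subunit. Capitals mark the bases within 5 of each exon junction of Rpl38, which lie unbroken in the copy. Rpl38-ps1, on the plus strand at chr4:138425790-138426002, is shown with capitals at its 4 differences from the same coding sequence, which are C7T, G9T, G81A and C166T. In these names the parent's base comes first, then the position from 1 at the A of the start codon, then the base of the copy.
Rpl38-ps2: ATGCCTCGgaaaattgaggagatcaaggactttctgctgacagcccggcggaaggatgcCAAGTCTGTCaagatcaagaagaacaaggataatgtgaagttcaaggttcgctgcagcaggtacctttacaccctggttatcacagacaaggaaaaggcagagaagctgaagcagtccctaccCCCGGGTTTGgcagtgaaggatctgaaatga
Rpl38-ps1: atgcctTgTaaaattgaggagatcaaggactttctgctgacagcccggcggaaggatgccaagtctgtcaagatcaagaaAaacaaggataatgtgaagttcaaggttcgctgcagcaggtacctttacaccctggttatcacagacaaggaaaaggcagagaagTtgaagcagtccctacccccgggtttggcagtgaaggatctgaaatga

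The copies of Rps15a, which encodes a small subunit protein, show a near copy and a diverged one. The first 120 coding bases are given for the parent and for Rps15a-ps6 (minus strand, chr11:6172917-6173036) and Rps15a-ps8 (minus strand, chr4:53791337-53791456), with differences from the parent in capitals. The change C7T turns codon 3 of Rps15a-ps6 into a stop codon, whereas Rps15a-ps8 holds 15 differences in this stretch and 30 in all, with an open reading frame.
Rps15a: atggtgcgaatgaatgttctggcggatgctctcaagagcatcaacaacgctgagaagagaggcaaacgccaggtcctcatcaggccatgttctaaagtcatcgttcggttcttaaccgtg
Rps15a-ps6: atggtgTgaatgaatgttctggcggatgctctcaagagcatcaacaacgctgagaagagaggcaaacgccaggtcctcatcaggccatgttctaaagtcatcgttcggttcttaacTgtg
Rps15a-ps8: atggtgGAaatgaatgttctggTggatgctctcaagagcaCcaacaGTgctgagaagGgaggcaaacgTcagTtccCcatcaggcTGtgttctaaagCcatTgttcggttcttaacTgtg

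The most counted member is a near copy. Rpl3-ps1 has 2 mismatches to the coding sequence of Rpl3, which encodes a large subunit protein. Coding bases 31 to 90 are shown for the parent and for the copy (plus strand, chrX:13202602-13202661), with C57A in capitals.
Rpl3: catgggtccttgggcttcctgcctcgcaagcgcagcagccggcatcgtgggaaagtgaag
Rpl3-ps1: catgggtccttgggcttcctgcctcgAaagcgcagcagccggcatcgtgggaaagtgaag

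Rps10-ps1 and Rps26-ps1 are shown because results between sexes and between diets turn on them. Rps10 and Rps26 encode small subunit proteins. A stretch of 80 coding bases of Rps10 is set beside Rps10-ps1 (plus strand, chr3:95622498-95622577), with A233G, T236C and T285C in capitals. The first 60 coding bases of Rps26 are set beside Rps26-ps1 (minus strand, chr8:107439503-107439562), with C30T in capitals.
Rps10: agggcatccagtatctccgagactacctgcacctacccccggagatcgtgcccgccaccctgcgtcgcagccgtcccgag
Rps10-ps1: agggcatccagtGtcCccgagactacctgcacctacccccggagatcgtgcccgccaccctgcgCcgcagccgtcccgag
Rps26: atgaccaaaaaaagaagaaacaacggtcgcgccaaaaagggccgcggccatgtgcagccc
Rps26-ps1: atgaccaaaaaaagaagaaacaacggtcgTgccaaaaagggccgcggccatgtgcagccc

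The 78 members comprise 46 copies of large subunit genes and 32 of small subunit genes, from 40 parents by name. Rpl31 has 8 members, and Rpsa, Rps12, Rps15a and Rpl21 have 5 each. For 76 members the named parent was also the nearest protein-coding gene by sequence. Identity to the parent's coding sequence ran from 88.9 to 100%, with a median of 98.2%, and 7 members had no mismatch. The reading frame was open in 53 members and interrupted in 25. By position, 51 members lay outside other genes, 26 lay in an intron of another gene (17 of them with the host on the opposite strand only) and 1 overlapped an exon of another gene.

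Counts were concentrated in few members. The members summed to 31118 counts over the 11 mice, and 5 of them held 62.4%. The median member had 33.5 counts in all, 48 had fewer than 50, and 45 were at 0 in at least 1 mouse. Rpl3-ps1 had the most counts, at 7262, followed by Rpl14-ps1 (5685), Rpl10a-ps1 (2440), Rpl38-ps2 (2429) and Rps16-ps2 (1592). Per kilobase of exon, the order was different, with Rpl38-ps2 highest at a level of 44.7 CPM per kb, then Rpl14-ps1 at 34.3 and Rpl3-ps1 at 23.4, against a median member at 0.213.

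Several members had more counts than their parents. Rps13-ps1 held 664% of the counts of Rps13, Rps13-ps2 440%, Rpl19-ps11 313%, Rpl3-ps1 246% and Rps16-ps2 179%, whereas the median member held 2.34%. These are shares of reads with a single alignment, so they follow how many reads of each gene could be placed and not transcript abundance alone. Rpl19-ps11 also overlaps an exon of Gm27288, so its counts are uncertain.

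To describe what the most counted members share, every stretch of 50 bases (the read length) of each member was looked up in all annotated transcripts. Windows were called unique when no other annotated gene holds them. They were called junction-only when every other occurrence spans an exon junction of another transcript, so that the stretch is unbroken in the annotation only in the member. The genome sequence itself was not used here, so copies outside the annotation were not seen. At least 1 junction-only window was found in 27 members, including 20 of the 25 with a mean of at least 10 counts and 7 of the other 53. The 27 members held 90.2% of all member counts, with a median of 379 counts against 20 in the 51 without such windows.

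Rpl10a-ps1, Rpl38-ps2, Rps16-ps2, Rpl31-ps8, Rps13-ps2 and Rps6-ps4 had no unique window at all, and their junction-only windows numbered 155, 21, 88, 16, 31 and 12. They had 2440, 2429, 1592, 1263, 585 and 278 counts. Rpl28-ps1 and Rpl17-ps5 also had no unique window but no junction-only window either, and they had 25 counts each. Across the 78 members, the Spearman correlation of mean CPM was 0.71 with the number of junction-only windows, -0.24 with the number of unique windows and 0.32 with identity to the parent. These values describe members that share parents and libraries, and the counts of a gene were part of the rule that chose them. With windows of 36 and 75 bases the first of these correlations was 0.65 and 0.64. Whether reads counted for these members came from spliced parent transcripts was not tested.

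**Figure D1:**
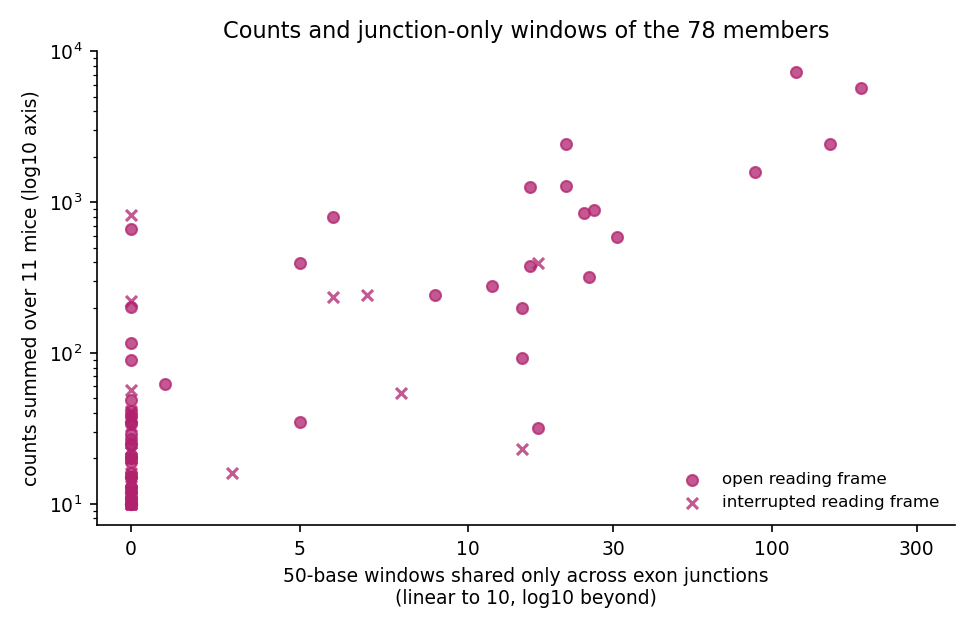
Counts summed over 11 mice (log10 axis) against the number of junction-only 50-base windows (linear to 10, log10 beyond) for the 78 members; circles have an open and crosses an interrupted reading frame. The 51 members without such windows have a median of 20 counts, and the 8 members with the highest mean CPM all lie to the right of 0.

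Diverged copies had mostly unique windows. Rps15a-ps8 had 306 unique windows of 338, no junction-only window and 664 counts. Rpsa-ps11 (chromosome 4, 59162268 to 59163156), a copy of the gene of the laminin receptor protein Rpsa, had 679 unique windows of 840 and 235 counts, with 6 junction-only windows.

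In the diet comparison, none of the 78 members passed an adjusted p of 0.1 in edgeR's quasi-likelihood test over all tested genes, against 14 genes called (0.068%), all higher in FD mice. At an unadjusted p of 0.05 there were 8 members, or 10.3% against 2.59% of all genes. Of these, 7 were higher in FD mice, against 1.93% of all genes, and 1 was lower, against 0.661%. In other processed pseudogenes of any count level the share was 15.8%. With a mean under 10 counts it was 13.2% of 53 members, 15.9% of other processed pseudogenes and 5.71% of all genes. With a mean of at least 10 counts it was 4.0% of 25 members, 15.7% of other processed pseudogenes and 1.7% of all genes. DESeq2 called no member either, against 0.0875% of genes with an adjusted p (0.0874% of all genes, all higher in FD mice). It gave 6 members an unadjusted p under 0.05, against 1.77% of genes, and 5 of them were higher in FD mice, against 1.41%. With the replicate number as a block, edgeR called 25 genes and again no member. The ranges of CPM in CD and FD mice overlapped for all 78 members, against 0.505% of genes with ranges that did not (0.403% with FD mice higher).

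Members of the large subunit with the highest CPM were at similar levels in both diets. Rpl3-ps1 (chromosome X, 13202571 to 13203780) had a CPM between 24.6 and 32.3 in CD mice, with a median of 27.0, and 27.7, 29.1, 29.4, 28.1 and 31.6 in FD mice. All FD values lay inside the CD range, and the log2 fold change was 0.08 ± 0.07 (SE, adjusted p = 1). Rpl14-ps1 (chromosome 7, 45324965 to 45325617), a copy of a large subunit gene within an intron of Trpm4, had a CPM between 18.2 and 24.0 in CD mice with a median of 21.6. In FD mice the values were 22.4, 23.6, 24.1, 24.8 and 22.1, with a log2 fold change of 0.11 ± 0.07. The lowest mouse was CD female 1, and FD female 2 and FD male 2 lay just above the CD range.

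Rpl38-ps2, identical to its parent in sequence, had a CPM between 8.31 and 13.1 in CD mice with a median of 9.47, and 10.2, 7.997, 7.61, 9.47 and 9.73 in FD mice. Its log2 fold change was -0.12 ± 0.12, beside -0.10 ± 0.12 for Rpl38. Rpl10a-ps1 (chromosome 1, 64993951 to 64994604) had no mismatch to the coding sequence of Rpl10a, but 1 indel that kept the frame. Its CPM was 8.11 to 10.96 in CD mice with a median of 8.88 and 9.53, 9.85, 8.83, 8.98 and 10.7 in FD mice. All FD values of Rpl10a-ps1 lay inside the CD range, whereas FD male 1 and FD female 2 lay below it for Rpl38-ps2.

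Rpl9-ps7 (chromosome 2, 70458982 to 70459560) ran from 4.95 to 5.73 in CD mice with a median of 5.12, and was at 4.10, 5.24, 5.10, 4.38 and 4.76 in FD mice. FD female 1, FD male 2 and FD female 3 lay below the CD range, and the log2 fold change was -0.15 ± 0.10 with an adjusted p of 1 in edgeR. Rpl31-ps8 (chromosome 15, 90764279 to 90764656) ran from 3.67 to 6.28 in CD mice with a median of 4.85 and was at 4.85, 4.62, 5.25, 4.74 and 5.09 in FD mice, with a log2 fold change of -0.02 ± 0.13.

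Among small subunit copies, Rps16-ps2 (chromosome 5, 129128077 to 129128517) had a CPM between 5.26 and 9.45 in CD mice with a median of 6.07, and 7.12, 5.67, 5.94, 4.38 and 6.38 in FD mice. The highest value was that of CD female 3, and the log2 fold change of -0.10 ± 0.15 became 0.02 without that mouse. Rps13-ps1 (chromosome 8, 87047689 to 87048226) had 2.86 to 4.86 in CD mice with a median of 3.41 and 2.79, 3.71, 3.73, 3.04 and 4.76 in FD mice, a log2 fold change of 0.06 ± 0.16. Groups also overlapped for the diverged copies, with log2 fold changes of 0.02 ± 0.16 for Rps15a-ps8 and -0.31 ± 0.27 for Rpsa-ps11.

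**Figure D2:**
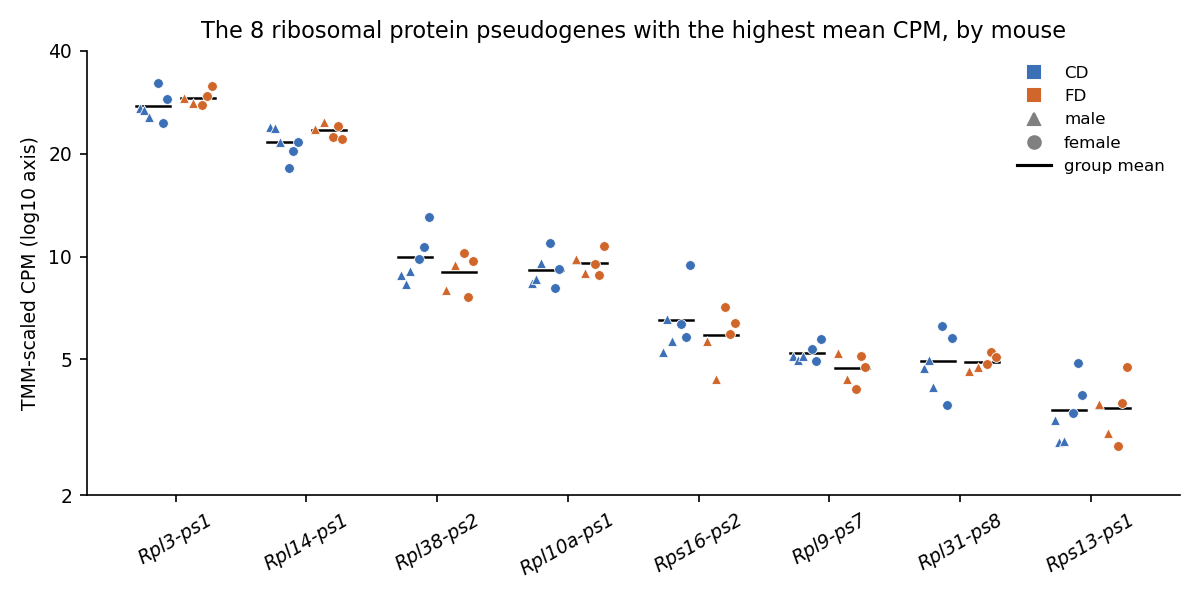
TMM-scaled CPM (log10 axis) of the 8 members with the highest mean CPM in each of 6 CD and 5 FD mice; triangles are males, circles females and bars group means. The CD and FD points overlap for every one of the 8, from Rpl3-ps1 at 24.6 to 32.3 CPM down to Rps13-ps1 at 2.79 to 4.86.

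The 8 members with the smallest unadjusted p in the diet comparison were, with the exception of Rps26-ps1, members with few counts. Rps15a-ps6, in an intron of Nudcd3 on the same strand, had 3, 2, 1, 0, 1 and 0 counts in CD mice and 6, 10, 7, 5 and 2 in FD mice. Its CPM reached 0.107 in CD mice, with a median of 0.0378, and was 0.174, 0.476, 0.533, 0.354 and 0.0828 in FD mice. The FD values were higher except for FD female 3, which lay below CD male 1. The log2 fold change was 2.51 ± 0.61 (unadjusted p = 0.000762, adjusted p = 0.372 in edgeR), and the adjusted p ran from 0.245 to 1 over the alternatives tried. With 7 counts in CD and 30 in FD mice, Rps15a-ps6 passed the minimum of 10 counts mainly through the FD mice. Its fold change and p-values are therefore no test of diet. In pairs of the same sex and number the FD mouse was higher in 5 of 5, with an adjusted p of 0.247 under the replicate block. For Rps15-ps2, Rps15a-ps7 and Rps19-ps10, outside these 8 members, the FD mouse was also higher in 5 of 5 pairs. The 8 were picked by p on these same mice, and no label states that mice of the same number are paired. Agreement over pairs is therefore no further test, here or for the members below. The parent Rps15a had a log2 fold change of -0.03 ± 0.05.

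Rpl38-ps1 had 1 count among the CD mice and 3, 2, 0, 2 and 2 counts in the FD mice, a ratio of 12.6 with a 95% exact counting interval of 1.75 to 553. Rpl31-ps13 (chromosome 13, 100415565 to 100415942), in an intron of Naip1, had 2 counts in CD mice and 10 in FD mice, a ratio of 7.0 with an interval of 1.49 to 65.7. Rpl21-ps4 (chromosome 14, 11227552 to 11227989) had 3 and 12 counts, with a ratio of 5.60 and an interval of 1.51 to 30.9. Rpl21-ps14 (chromosome 8, 4861169 to 4861651) had 3 and 8 counts, with a ratio of 3.74 and an interval of 0.897 to 21.9. All 4 are copies of large subunit genes. Their intervals cover counting error only, and these members passed the minimum of 10 counts mainly through the FD mice, so neither ratio nor interval is a test of diet.

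Rpsa-ps12 (chromosome 4, 149142497 to 149143388) had 0, 0, 2, 0, 0 and 2 counts in CD mice and 3, 3, 4, 5 and 3 in FD mice. Its highest CD value of 0.133 CPM, in CD female 3, lay above the FD values of 0.0872 and 0.124, and the log2 fold change was 2.46 ± 0.80 with an adjusted p of 1 in edgeR. With 4 counts in CD and 18 in FD mice, Rpsa-ps12 also passed the minimum mainly through the FD mice, so these values are no test of diet. Rpl13a-ps1 (chromosome 19, 50030124 to 50030735), with 29 mismatches to Rpl13a and an open frame, had 0.0358 to 0.200 CPM in CD mice with a median of 0.0878 and 0.320, 0.143, 0.152, 0.0707 and 0.207 in FD mice. The groups overlapped, the log2 fold change was 1.15 ± 0.47 with an adjusted p of 1, and the FD mouse was higher in 5 of 5 pairs of the same sex and number. With the replicate block the adjusted p was 0.782 in edgeR.

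Rps26-ps1, annotated as a transcribed processed pseudogene in an intron of Wwp2, was the only one of the 8 that was lower in FD mice. Its CPM ran from 0.794 to 1.13 in CD mice with a median of 0.967, and was 0.581, 0.238, 0.381, 0.636 and 0.870 in FD mice. Of the FD mice, only FD female 3 reached the CD range, and the FD mouse was lower in 5 of 5 pairs (adjusted p = 0.402 in edgeR with the replicate block). The log2 fold change was -0.76 ± 0.26 (unadjusted p = 0.00936, adjusted p = 1 in edgeR), and the parent Rps26 had -0.14 ± 0.13. Rps26-ps1 had 200 counts, so its estimate rests on more reads than those of the other 7.

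**Figure D3:**
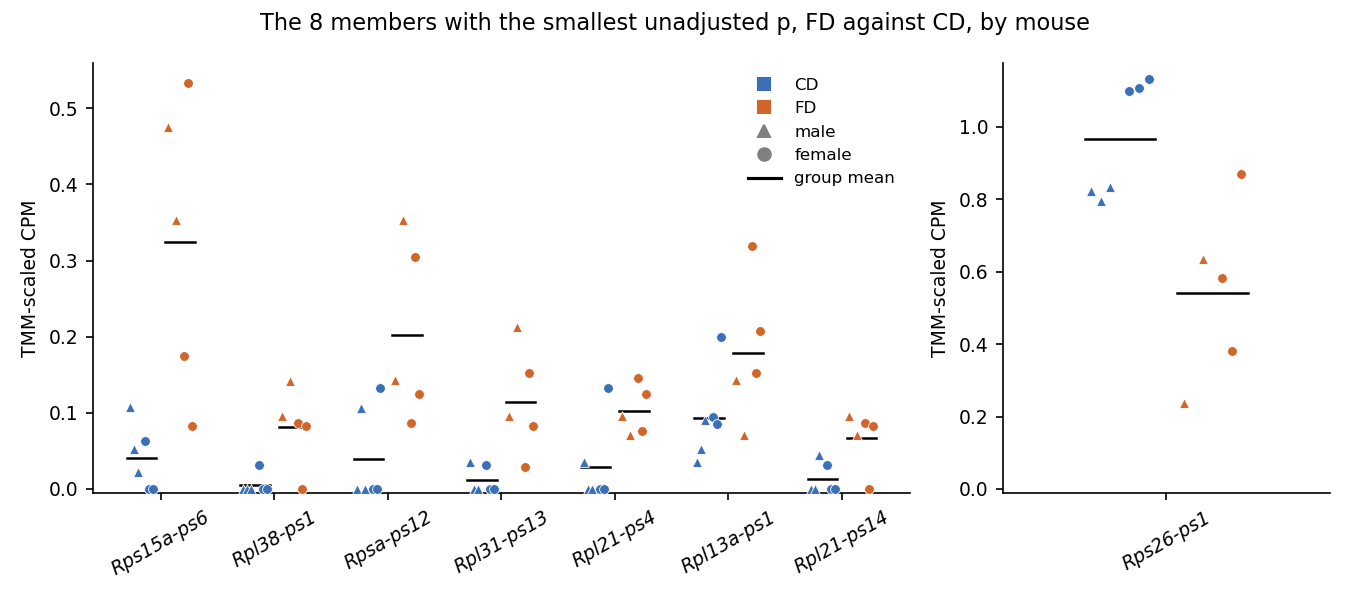
TMM-scaled CPM by mouse for the 8 members with the smallest unadjusted p between diets; triangles are males, circles females and bars group means, with Rps26-ps1 on its own axis. In 7 members the FD mean is higher, with at least 1 CD mouse at 0 in each but Rpl13a-ps1, and in Rps26-ps1 only 1 FD mouse reaches the CD range.

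The fold changes of the members divided by count level. Over all 78 the median log2 fold change was 0.12. In females alone it was -0.079 over the 53 members, of any count level, that kept 10 counts in females. These are not the same set as the 53 members with fewer counts below. In the 25 members with a mean of at least 10 counts, the median log2 fold change was -0.001, with 12 above 0, while it was 0.44 in the 53 members with fewer counts, with 39 above 0. Over all tested genes it was -0.004, with 48.2% above 0. Among the 53, 14 had a log2 fold change of at least 1, and none had one of -1 or less, against 2.11 and 0.753% of all genes. Like for like, the share at 1 or more was 26.4% of the 53, 8.95% of all genes with a mean under 10 counts and 21.8% of other processed pseudogenes at that level. A gene with few counts can pass the minimum of 10 through the group in which it is higher, so these counts and medians describe the genes that passed and are no test of diet. For comparison, the median was 0.36 in 854 other processed pseudogenes with a mean under 10 counts, 0.07 in 1987 protein-coding genes of that kind and 0.01 in 370 long intergenic RNAs. In the 511 other processed pseudogenes with a mean of at least 10 counts it was 0.11. Of the 14 genes called between diets, 11 were other processed pseudogenes.

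**Figure D4:**
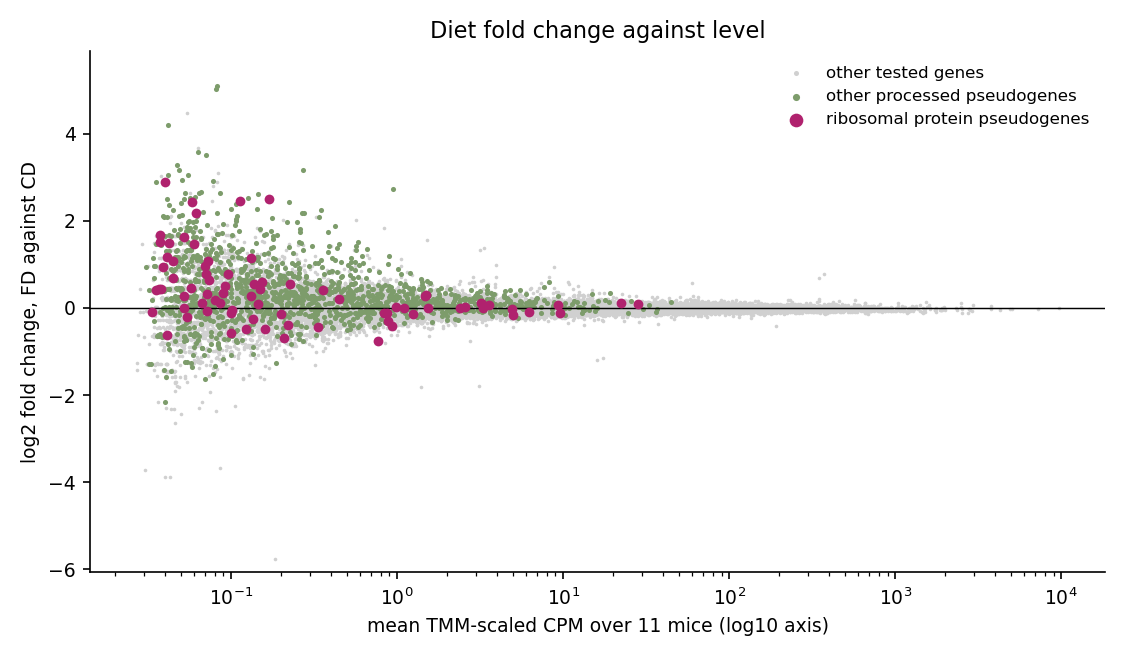
Log2 fold change of FD against CD mice (above 0 is higher in FD) plotted over mean TMM-scaled CPM (log10 axis) for the 78 ribosomal protein pseudogenes, 1365 other processed pseudogenes and all other tested genes. Members at high CPM lie near 0, and those at low CPM spread more widely, with 39 of the 53 that have a mean under 10 counts above 0.

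Summed levels by mouse gave the same division without a fold change per gene. The 25 members with a mean of at least 10 counts summed to 115.9 ± 6.91 CPM in CD mice (SD, n = 6) and 117.3 ± 4.53 in FD mice (SD, n = 5), with overlapping ranges of 108.7 to 126.8 and 114.8 to 125.4. The 53 members with fewer counts summed to between 4.01 and 5.28 CPM in CD mice, with a mean of 4.61 ± 0.489 (SD, n = 6). In FD mice they summed to 6.13, 6.62, 5.48, 6.22 and 6.17, with a mean of 6.12 ± 0.408 (SD, n = 5). The lowest FD mouse exceeded the highest CD mouse, and the ratio of means was 1.33. The genes in this sum passed the minimum on the same counts, so it carries no test.

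This difference in the summed level was present in both sexes, with a log2 ratio of 0.54 in males and 0.30 in females. It stayed between 0.37 and 0.45 when any single mouse was left out. The genes in the sum were chosen on counts of these same mice, so these values are no test either. The median in females alone, given above, was below 0. It covers another set, the members of any count level that kept 10 counts in females. The summed difference rested partly on the 7 members with the smallest p among the 53, which were chosen by that p. These summed to a mean of 0.231 CPM in CD and 1.07 CPM in FD mice, whereas the other 46 summed to 4.38 ± 0.401 in CD and 5.05 ± 0.485 in FD mice with overlapping ranges. The 106 pseudogenes of the same form that fell below the minimum, with 1 to 9 counts each, summed to 0.683 to 1.82 CPM in CD and 1.89 to 2.29 CPM in FD mice, again without overlap. The 854 other processed pseudogenes with a mean under 10 counts summed to 101.0 to 114.5 CPM in CD and 143.8 to 150.2 in FD mice. Protein-coding genes at that count level summed to 311.2 to 351.4 and 316.8 to 369.4, which overlap. The share of reads outside annotated genes, which overlapped between diets, is given above. The part of any library property in the difference was not tested.

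**Figure D5:**
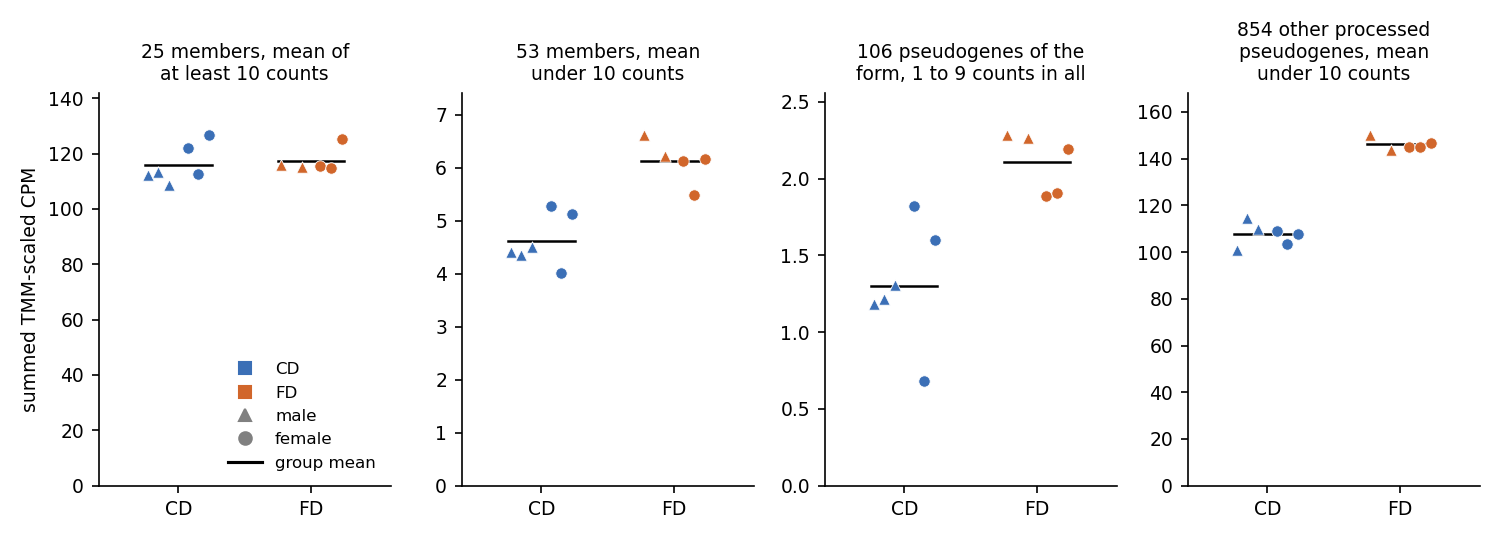
Summed TMM-scaled CPM by mouse, from 0, for 25 members with a mean of at least 10 counts, 53 members with fewer, 106 pseudogenes of the same form with 1 to 9 counts, and 854 other processed pseudogenes with few counts; triangles are males, circles females and bars means. CD and FD mice overlap in the first set and are separate in the other 3, where all FD mice are higher.

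By sequence, the 27 members with junction-only windows had a median log2 fold change between diets of 0.003 and the 51 without them 0.43. Split by count level as well, members with a mean of at least 10 counts had medians of -0.004 with such windows (n = 20) and 0.02 without (n = 5), and those with fewer counts had 0.12 (n = 7) and 0.45 (n = 46). Members with an open reading frame had a median of 0.08 and those with an interrupted frame 0.42. By subunit the medians were 0.16 for the large and 0.11 for the small subunit, and in families they spread as widely, with the 8 copies of Rpl31 running from -0.62 to 2.43 and the 5 copies of Rps15a from -0.42 to 2.51.

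Ribosomal protein genes themselves were set beside the copies. None of 78 tested cytosolic ribosomal protein genes passed the threshold between diets, with a median log2 fold change of -0.05 and 16 above 0. None of 23 genes of ribosome assembly and ribosomal RNA transcription passed, with a median of -0.05. The parents of the members summed to between 882.6 and 1030.0 CPM in CD mice and between 851.9 and 968.1 in FD mice, which overlap. As a percentage of their parents' CPM, the members came to 12.9 ± 0.399% in CD mice and 13.8 ± 0.557% in FD mice (SD), with ranges of 12.4 to 13.3% and 12.9 to 14.2% that overlap.

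Between males and females, with diet in the model, 1 of 78 members passed an adjusted p of 0.1 in edgeR, lower in males, against 6.11% of all tested genes (3.07% higher and 3.03% lower in males). At an unadjusted p of 0.05 there were 9 members, or 11.5% against 20.3% of all genes. Of these, 3 were higher in males, against 9.94% of all genes, and 6 were lower, against 10.3%. Among members with a mean of at least 10 counts it was 7 of 25, against 24.5% of all genes and 11.2% of other processed pseudogenes. Among members with a mean under 10 counts it was 2 of 53, against 5.62% of all genes and 6.21% of other processed pseudogenes. No member had separate ranges in males and females, against 1.78% of genes. The member that passed was Rps10-ps1 (chromosome 3, 95622278 to 95622772), a copy of a small subunit gene with 6 mismatches and an open frame. Its CPM was 0.895, 0.741, 1.31, 0.9996 and 0.566 in males and ran from 1.22 to 2.06 in females with a median of 1.48. Only CD male 3, at 1.31, reached the range of the females. The log2 fold change of males against females was -0.70 ± 0.20 (adjusted p = 0.0852 in edgeR), and the parent Rps10 had -0.24 ± 0.08 (adjusted p = 0.111). The call was lost when any single mouse was left out other than CD female 2, CD male 3 or FD female 2, with adjusted p between 0.055 and 0.203 over the 11 fits.

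The next members by p were Rpl18-ps1 and Rpl7a-ps9. Rpl18-ps1 (chromosome 1, 60900898 to 60901422), in an intron of Ctla4, had a log2 fold change of -0.68 ± 0.24 (adjusted p = 0.12) in males. Rpl7a-ps9 (chromosome 7, 81445920 to 81446696), with 65 mismatches to its parent and 22 counts in all, had 1.57 ± 0.57 (adjusted p = 0.131). Of the 27 members with junction-only windows, 23 were below 0 in males, with a median of -0.19, against 20 of the 51 without them, with a median of 0.17. The 40 parents had a median of -0.13, with 3 lower and none higher in males at the threshold. Among the 78 ribosomal protein genes, 10 were lower in males and 1 was higher, and the lowest values among these 11 were those of Fau at -0.53 ± 0.14 and Rpl28 at -0.39 ± 0.11. The tally of several alignments came to 13.7 to 14.5% of the total in males and 13.9 to 16.0% in females, and its part in these values was not tested.

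For the interaction of diet and sex, no member and no gene of 20589 passed the threshold in edgeR (0.0%), nor did any in DESeq2. In edgeR, 2 members had an unadjusted p under 0.05, both positive, against 1.9% of genes (0.651% positive). Rps25-ps1 (chromosome 6, 145266400 to 145266777), a copy of a small subunit gene, had a CPM of 0.251, 0.106 and 0.181 in CD males and 0.476 and 0.495 in FD males. In females it ran over 0.565, 0.256 and 0.533 in CD and 0.378, 0.228 and 0.455 in FD mice. Its interaction was 1.73 ± 0.63 on the log2 scale, with an adjusted p of 1. Rpl22-ps1 (chromosome X, 8038611 to 8038996) had 0.88 ± 0.36, with 1.61, 1.32 and 1.38 CPM in CD males against 2.05 and 1.98 in FD males, and 2.23, 1.11 and 1.33 in CD females against 1.25, 1.45 and 1.201 in FD females. Male groups were separate for both members and female groups overlapped. Both were chosen by p from these same values, with few males per group, so the separation is no test. The share of all genes with separate male groups was not determined.

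Spread between mice was close to counting error for many members, mainly those with few counts. The chi-square of a member's counts against an equal share of the scaled depth, per degree of freedom, had a median of 1.31, where counting error alone gives values near 1. It was under 1 in 28 members and over 2 in 19, and was highest for Rpl3-ps1 at 4.87. Of the 8 members with the highest mean CPM, all but Rpl9-ps7 (0.991) were over 2. Few counts can show little spread beyond counting error, so values near 1 in such members do not show that mice were alike. The median standard error of the diet log2 fold change was 0.713 in the 53 members with few counts and 0.175 in the 25 others.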

How the data were processed

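RNA was taken from the hippocampi of 6 CD and 5 FD mice, the 14-week cohort of the study, and read as 50-base single ends. The authors trimmed the reads, mapped them to mm10 (GRCm38) with STAR and counted uniquely aligned reads per Ensembl gene with featureCounts. The deposited values are raw counts per gene, 1 table per mouse. Each table also ends with 5 summary lines (reads outside genes, ambiguous, with several alignments and so on), which were left out of library sizes and tests. Whether counting used strand, and how the libraries were enriched, is not given in the sources used here.

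Of 38293 gene identifiers, 95.1% matched GENCODE M21. Genes with at least 10 counts in total were tested with edgeR 4.0.16 in R 4.3.3 (quasi-likelihood F-test, TMM scaling, Benjamini-Hochberg adjustment over 20589 genes, adjusted p of 0.1), by diet alone, by sex with diet, and for their interaction. DESeq2 1.42.0 was an alternative, beside other scalings, filters, a sex covariate, each sex alone, a replicate block and each mouse left out. The edgeR script was tested on simulated counts. Standard errors are the log2 fold change divided by the root of F. Counting intervals are exact (Clopper-Pearson, 95%). Nearest parents came from blastn 2.17.0, and identities from global alignment to the parent's coding sequence (biopython 1.88). An open frame keeps the start codon and over 95% of the coding sequence, with no frameshift or early stop. Sequences and positions are GENCODE M21 on GRCm38, on which no genome sequence was used.

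Mice of the same sex and number deviated together (r = 0.242 to 0.503 over 15998 genes in 5 pairs), and the numbers were taken as pairs for the replicate block. No label states such a pairing. Only 3 of the 5 FD mice correlated best with the CD mouse of their own number. CD female 1 and FD female 3, with other numbers, reached 0.518. Whether the numbers mark true pairs is therefore not established. Mice of the same sex with other numbers had a mean r of 0.177. After centring within sex, r was 0.00219 to 0.371, and 2 of 5 pairs exceeded 0.1.

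The members and lists were chosen with earlier results of these data known. Named members were those past the threshold in any contrast, the 8 with the highest mean CPM, the 8, 3 and 2 with the smallest p for diet, sex and interaction, those with separate ranges between diets (none), and the 3 with the largest and smallest share of unique windows among members with a mean of at least 10 counts. 1 member that this rule names is not reported here. Others were named after their values were seen: Rps13-ps2, Rps6-ps4, Rpl28-ps1 and Rpl17-ps5 for their windows, and Rpl19-ps11 for its count. Rps15-ps2, Rps15a-ps7 and Rps19-ps10 were named in the same way for their pairs. The sum over members with few counts was added after seeing the data.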

Additional observations from a re-analysis of the deposited data

Results flagged for a closer look

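A single mouse stood far from the rest of its group (Dixon's criterion) in 6 of 58 group-by-measure sets tested. The criterion sets apart about 1 in 20 sets of independent, normally distributed values. The sets here share mice and include members picked by p with counts near 0, so the number flagged cannot be compared with that rate. CD female 3 was the highest of the CD mice for Rps16-ps2 at 9.45 CPM, for Rpl21-ps4 at 0.133 CPM and for Rpl13a-ps1 at 0.200 CPM. CD female 1 was the only CD mouse with a count of Rpl38-ps1, at 0.0314 CPM. FD female 2 was the only FD mouse without a count of Rpl21-ps14, at 0 CPM. FD female 3 had the highest sum over all members in its group, at 131.6 CPM. For Rpl21-ps4, Rpl38-ps1, Rpl21-ps14 and Rpl13a-ps1, members with few counts, the mouse set apart had at most 3 reads.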

How the results depend on the processing

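No member passed the threshold between diets under any alternative run, the replicate block included. The replicate block raised the genes called between diets from 14 to 25, filterByExpr gave 8, a minimum of 10 counts in every mouse 1, males alone 2, females alone 1, and single mice left out 3 to 12. The block changed no other call. The median log2 fold change of the members, 0.12 in the report, was 0.17 with DESeq2, 0.0074 with filterByExpr (24 members), 0.047 with 10 counts in every mouse (16 members), -0.079 in females alone and 0.058 to 0.15 with single mice left out (lowest without CD male 3). The alternatives that keep fewer members drop those with few counts by construction. Between sexes, the count of members called was 0 with DESeq2, which gave 67 members, Rps10-ps1 included, no adjusted p, 3 with a minimum of 1 count (Rpl18-ps1, Rps10-ps1 and Rps16-ps2), and 0 to 4 with single mice left out (4 without CD female 2 or FD female 2). No member was called for the interaction under any alternative.

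Some named members changed sign, among them Rps25-ps1 and Rpl7a-ps9, at 0.40 and 0.50 over all mice. In males alone Rpl38-ps2 was at 0.000255 and Rpl31-ps8 at 0.048. In females alone Rps13-ps1 was at -0.10, Rpl18-ps1 at -0.35, Rps25-ps1 at -0.37 and Rpl22-ps1 at -0.39. With the replicate block Rps13-ps1 was at -0.035, Rpl18-ps1 at -0.14, Rpl22-ps1 at -0.028 and Rps15a-ps8 at -0.040. Rpl18-ps1 was at -0.014 with DESeq2 and -0.10 with sex as a covariate. With single mice left out the log2 fold change ran over -0.18 to 0.017 for Rps16-ps2, -0.073 to 0.076 for Rpl31-ps8, -0.077 to 0.17 for Rps13-ps1, -0.12 to 0.17 for Rpl18-ps1, -0.026 to 0.89 for Rpl7a-ps9, -0.12 to 0.17 for Rpl22-ps1 and -0.049 to 0.14 for Rps15a-ps8. The cause of these changes was not tested. The median share of unique windows, 51.3% at 50 bases, was 35.5% at 36 and 70.6% at 75 bases. Depth limits members with few counts most, and without a genome sequence copies outside the annotation were not seen.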
